A study of Mus musculus with 20 samples.

Results

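The cell cycle genes are 47 of the 24393 mouse genes in the count table. They were chosen by symbol, and they comprise 6 genes of G1 (the D and E cyclins and E2f1), 13 genes of S phase, 24 genes of mitosis and 4 inhibitors of cyclin-dependent kinases. All 47 had enough reads to be tested, and 14179 genes were tested in all. RNA was sequenced from cells of mouse leg muscle (gastrocnemius, quadriceps and tibialis anterior) in 20 libraries of 3 populations, labelled FAP, Misc and SMP, each in a DKO and a WT condition. FAP and Misc had 4 libraries in either condition, and SMP had 2. The labels do not spell out these abbreviations, and the sources used here do not give strain, age, sorting, pooling of animals or the alleles of the DKO. No treatment is named for any group. DKO and WT are read here as double knockout and wild type, and FAP as fibro/adipogenic progenitor, a resident stromal cell of muscle. Desmin (Des), taken from knowledge of the study to be 1 of the genes removed, stood at 4.54 ± 0.843 CPM in FAP DKO against 15.8 ± 1.98 in FAP WT (SD, n = 4 each), and it was also lower in DKO in Misc and SMP (adjusted p = 0.000943 and 1.59e-05, edgeR).

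Libraries held from 5.83 M counted reads, in an SMP DKO library, to 17.73 M, in a Misc WT library, and a lowly expressed gene is measured least precisely in SMP DKO. The FAP list of 10 markers, led by Dcn and Gsn, summed to at least 76700 counts-per-million (CPM, scaled by TMM) in FAP against at most 37640 in Misc. Gsn averaged 50420 CPM in FAP WT and 12730 CPM in Misc WT, and Ly6a 612 and 5.47 CPM. Dcn, alone of the 10, was lower in FAP WT than in Misc WT, at 17550 and 20210 CPM. Tnmd, a tendon cell gene, stood at 1689 CPM or more in Misc and at 268 CPM or less elsewhere. Pax7, a defining gene of satellite cells, the stem cells of muscle, stood between 100 and 271 CPM in SMP and at 2.63 CPM or less elsewhere. SMP DKO replicate 2 stood apart: its 12 leukocyte markers summed to 635 CPM against 21.1 to 35.7 in the other SMP libraries, its 10 FAP markers to 11120 CPM against 2315 to 3024, and its 10 endothelial markers to 664 CPM against 119 to 299. SMP WT replicate 1 differed from SMP WT replicate 2 in the mitotic genes themselves, with 174 against 431 CPM in sum. SMP results are therefore given with and without these libraries. In bulk libraries a larger share of dividing cells and more mRNA in each dividing cell cannot be told apart.

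Cells enter the division cycle when D cyclins with their kinases phosphorylate the retinoblastoma protein and so free E2F factors, which switch on cyclin E and the genes of DNA replication. Mitotic genes are switched on later, largely through promoter elements read by the MuvB complexes DREAM and MMB-FOXM1, and most of their products are degraded as the cell leaves mitosis. Inhibitors of cyclin-dependent kinases hold this progress back. Satellite cells and stromal cells of resting muscle are mostly outside the cycle and enter it after injury or in disease.

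The promoters of the S-phase and mitotic members differ in the elements they hold, and the examples show such elements in some of the members called below. RefSeq promoter windows (GRCm38.p6, from 250 bases before to 50 after the start) matched 37 of the 47 members. The windows were searched on both strands for the cell cycle homology region (CHR, TTTGAA or TTCGAA), an E2F motif (TTTNGCGC) and the CCAAT box, and E2F matches may overlap each other. The CHR was found in 16 of 20 mitotic promoters (80%) and in 2 of 11 S-phase promoters (18.2%), against 19.4% of 27025 promoters, 1 per gene. The E2F motif was found in 5 of 11 S-phase promoters (45.5%) and 1 of 20 mitotic ones (5%), that of Cdk1, against 1.38% of all. The CCAAT box was found in 85% of the mitotic and 72.7% of the S-phase windows, against 37.9% of all. Other members called below lacked them: no CHR was found for Ccnb1, no E2F motif for Rrm2 and none of these motifs for Cdc6. A match is a run of letters and was not measured as a bound site. Each sequence reads 5′ to 3′ on the gene's strand and ends at or before the base ahead of the start, with all matches of these motifs in capitals.
Cdk1 (chr10:69352913-69353062, minus strand): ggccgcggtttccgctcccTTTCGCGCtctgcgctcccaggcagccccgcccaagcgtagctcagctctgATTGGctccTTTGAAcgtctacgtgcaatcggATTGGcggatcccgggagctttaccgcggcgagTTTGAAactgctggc
Top2a (chr11:99024200-99024389, minus strand): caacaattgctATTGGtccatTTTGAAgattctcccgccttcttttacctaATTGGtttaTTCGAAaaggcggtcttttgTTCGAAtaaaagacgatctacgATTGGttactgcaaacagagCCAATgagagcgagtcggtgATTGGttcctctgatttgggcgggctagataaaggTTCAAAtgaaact
Mki67 (chr7:135716460-135716579, minus strand): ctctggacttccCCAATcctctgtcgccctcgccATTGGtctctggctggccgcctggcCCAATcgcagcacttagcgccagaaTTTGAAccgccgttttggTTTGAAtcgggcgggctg
Cdc20 (chr4:118437344-118437413, minus strand): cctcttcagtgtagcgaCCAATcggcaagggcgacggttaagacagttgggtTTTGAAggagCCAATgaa
Kif11 (chr19:37376312-37376381, plus strand): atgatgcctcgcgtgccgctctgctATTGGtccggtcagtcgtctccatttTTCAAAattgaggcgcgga
Mcm6 (chr1:128359706-128359830, minus strand): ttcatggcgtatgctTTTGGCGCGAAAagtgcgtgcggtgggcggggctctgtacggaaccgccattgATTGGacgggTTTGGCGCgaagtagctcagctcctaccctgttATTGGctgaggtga
Mcm5 (chr8:75109344-75109467, plus strand): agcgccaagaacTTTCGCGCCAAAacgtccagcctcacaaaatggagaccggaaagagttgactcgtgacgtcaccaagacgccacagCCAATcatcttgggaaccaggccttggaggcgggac
The Mcm6 and Mcm5 windows carry paired, overlapping E2F matches, while the Top2a window carries CHR and CCAAT matches and no E2F match.

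The 24 mitotic genes were at their highest in SMP and at their lowest in Misc WT. Their summed level was 701 and 529 CPM in SMP DKO and 174 and 431 CPM in SMP WT. It was 48.7, 50.8, 37.9 and 63.9 CPM in FAP DKO and 47.5, 52.0, 36.8 and 49.7 CPM in FAP WT, in replicate order, as are all values below. In Misc it was 46.2, 63.2, 45.2 and 58.3 CPM in DKO and 23.2, 22.2, 22.0 and 28.2 CPM in WT. DKO and WT overlapped in FAP and did not overlap in Misc or SMP. The S-phase genes are also used in DNA repair and nucleotide supply. Their summed level was 295 ± 17.6 and 267 ± 22.2 CPM in FAP DKO and WT, and 301 ± 26.6 and 281 ± 20.2 in Misc (SD, n = 4 each). In SMP it was 583 ± 43.6 and 395 ± 50.2 CPM (SD, n = 2 each). In Misc and SMP this sum differed less between conditions than the mitotic sum. Much of it was Pcna, at 151, 132 and 196 CPM on average in FAP, Misc and SMP DKO. Pcna passed the test described below in no population. Gene by gene, the median log2 fold change in SMP was 0.89 for S-phase and 1.06 for mitotic genes (0.64 and 0.59 without WT replicate 1). In Misc it was 0.17 and 1.06. The 4 inhibitors summed to 457 ± 14.6 CPM in FAP DKO and 537 ± 36.5 in FAP WT, and to 355 ± 39.2 and 469 ± 37.2 CPM in Misc (SD, n = 4 each). In SMP they summed to 685 ± 66.8 and 518 ± 7.28 CPM (SD, n = 2 each). The conditions did not overlap in any of the 3 populations, but most of each sum was Cdkn1a. In DKO it averaged 354, 248.5 and 479 CPM in FAP, Misc and SMP. The inhibitors did not all change alike: in Misc DKO Cdkn1c was lower and Cdkn2c higher. These sums were not tested.

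**Figure D1:**
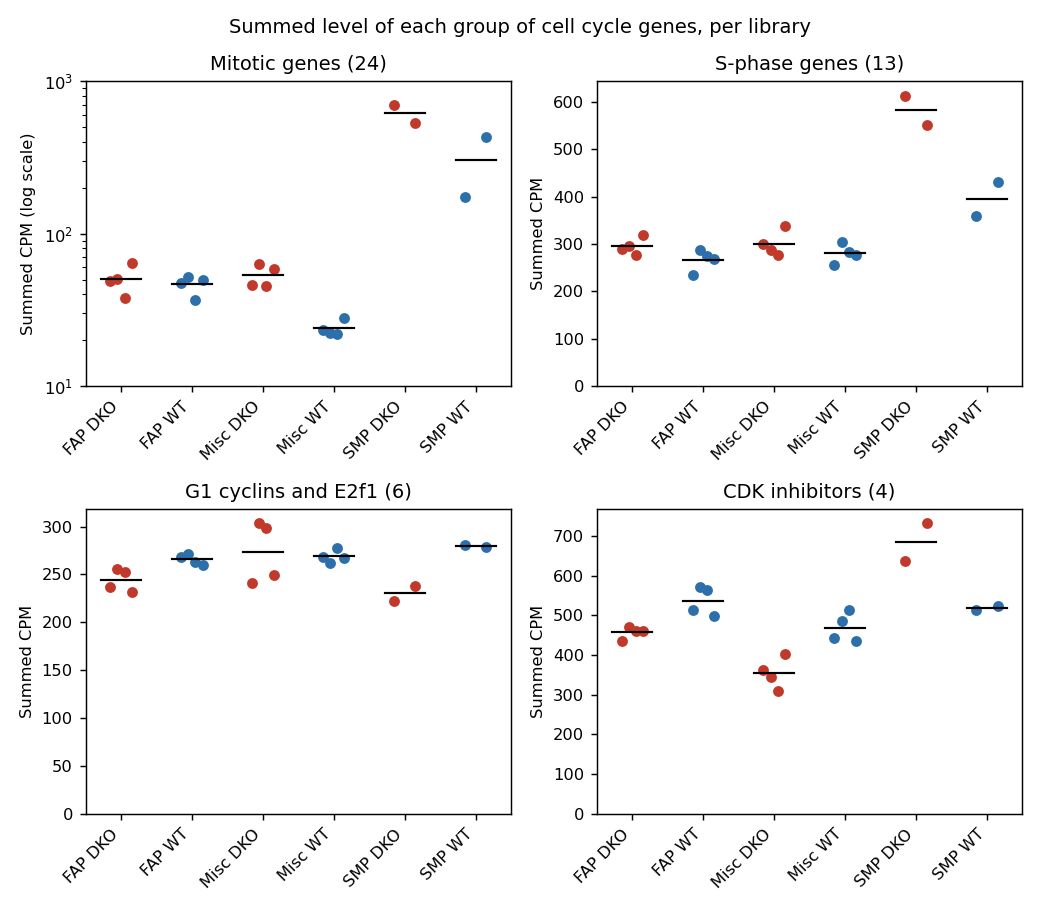
Summed CPM of the mitotic genes (log axis), the S-phase genes, the G1 genes and the inhibitors in each of 20 libraries; points are libraries (DKO red, WT blue) and lines are group means. The mitotic sum lies between 45.2 and 63.2 CPM in Misc DKO, above all 4 Misc WT libraries, and the SMP WT libraries lie far apart at 174 and 431 CPM.

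In FAP, 3 of the 47 genes changed between DKO and WT, and no mitotic gene was among them: Ccne1 was higher, and Ccnd1 and Mcm6 were lower. Their log2 fold changes were 1.02, -1.17 and -1.08. A gene is called here at an adjusted p below 0.05 (edgeR quasi-likelihood test, Benjamini-Hochberg over all 14179 genes), and ± after a log2 fold change is its standard error. By that rule 5.58% of all genes were called higher and 5.14% lower in FAP, so that 1 higher and 2 lower of 47 was no more than the background. At an unadjusted p below 0.05 there were 9 of 47 and none of the 24 mitotic genes, and DESeq2 called none of the 24 either. In 1 gene every DKO library was above every WT library and in 6 every one was below, beside 8.87% and 10.3% of all genes.

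Ccnd1 encodes cyclin D1, which carries growth signals to the cell cycle (chr7:144929931-144939831, GRCm38). It was counted at 11.7, 5.17, 9.58 and 6.27 CPM in FAP DKO and at 22.8, 19.8, 18.8 and 13.9 CPM in FAP WT. All 4 DKO libraries lay below all 4 WT libraries, and the log2 fold change was -1.17 ± 0.19 (adjusted p = 0.000214). The other D cyclins did not pass the test. Ccnd2 stood at 146, 171, 171 and 158 CPM in FAP DKO and 154, 170, 164 and 156 CPM in FAP WT, which overlapped almost wholly (log2 fold change 0.01 ± 0.11). Ccnd3 had a log2 fold change of -0.32 ± 0.12 (adjusted p = 0.089).

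Ccne1 encodes cyclin E1, which with its kinase starts DNA replication (chr7:38097984-38107490). Its values were 6.25, 5.01, 5.81 and 7.54 CPM in FAP DKO and 2.67, 3.75, 3.00 and 2.86 CPM in FAP WT. Every DKO library was above every WT library, with a log2 fold change of 1.02 ± 0.19 (adjusted p = 0.000945). Ccne2, the second cyclin E, had a log2 fold change of 0.63 ± 0.39 and was not called.

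Mcm6 encodes a subunit of the 6-part helicase that opens DNA for replication (chr1:128331575-128359705), and its promoter is shown above. It stood at 12.7, 4.70, 10.1 and 8.43 CPM in FAP DKO and at 21.2, 16.5, 18.9 and 21.1 CPM in FAP WT. The groups did not overlap, and the log2 fold change was -1.08 ± 0.21 (adjusted p = 0.00158). None of the other 5 helicase subunits was called in FAP, with log2 fold changes from -0.06 (Mcm4) to 0.41 (Mcm2). Leaving out any 1 FAP library kept Ccnd1, Ccne1 and Mcm6 called, with adjusted p from 2.34e-05 to 0.00899. Tendon cell markers differed between the same libraries: the 8 of them summed to 3160 to 5051 CPM in FAP DKO and to 716 to 970 CPM in FAP WT, 2 of the 8 were called higher, and Tnmd was at 40.2 to 81.2 and 33.0 to 46.6 CPM. Most of that sum was Thbs4, at 3163 ± 737 CPM in DKO and 330 ± 44.9 CPM in WT (SD, n = 4), while Kera, Chad and Mkx were not called. The 10 endothelial markers summed to 145 to 248 CPM in FAP DKO and 310 to 403 CPM in FAP WT, with 1 called lower. The part of either in the FAP values was not tested.

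**Figure D2:**
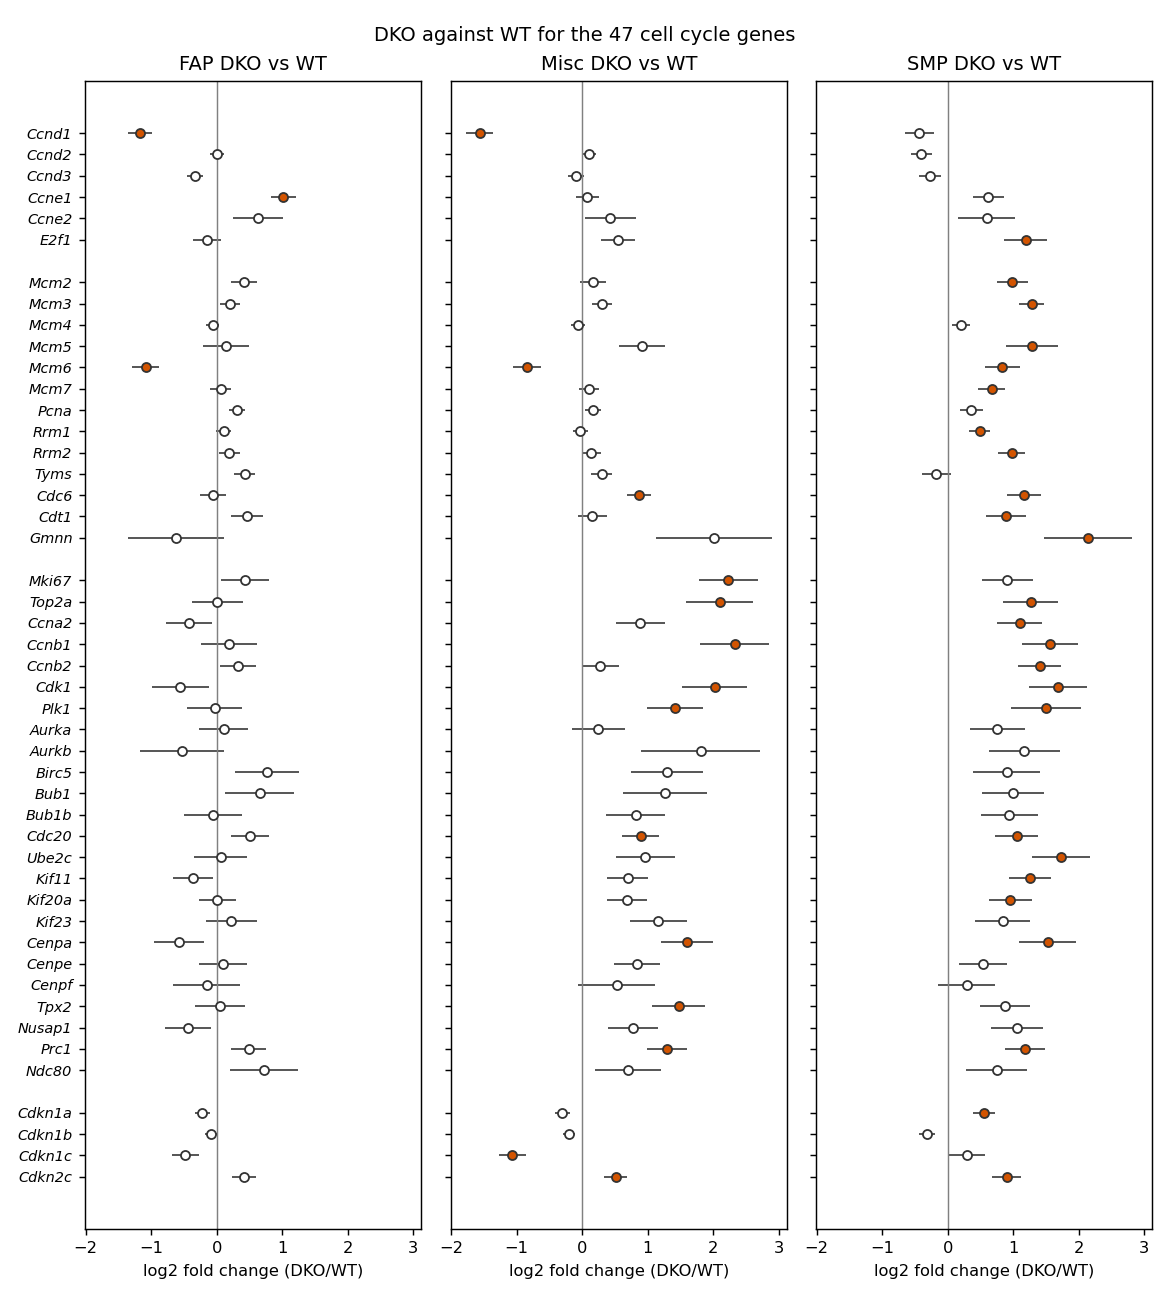
Log2 fold change of DKO over WT for each of the 47 genes in FAP, Misc and SMP, ordered from G1 genes through S-phase and mitotic genes to inhibitors; bars are standard errors and filled points passed the test. The mitotic genes scatter about 0 in FAP and all lie above 0 in Misc and SMP.

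In Misc, 14 of the 47 genes changed: 11 were higher in DKO and 3 were lower, where 9.15% of all genes were called higher and 9.55% lower. The higher genes were 9 mitotic genes, Cdc6 and the inhibitor Cdkn2c. All 24 mitotic genes had a positive log2 fold change, with a median of 1.06 beside 0.01 over all genes tested. The lower genes were Ccnd1, Mcm6 and the inhibitor Cdkn1c. In 10 of 47 genes all DKO libraries were above all WT libraries, and in 3 all were below, beside 9.92% and 11.3% of all genes.

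The mitotic genes that rose in Misc ranged from the proliferation marker to the kinases and the anaphase switch. Mki67, which coats mitotic chromosomes and marks dividing cells, stood at 4.73, 10.8, 5.51 and 6.99 CPM in DKO and at 1.47, 1.18, 1.09 and 2.38 CPM in WT (log2 fold change 2.23 ± 0.45, adjusted p = 0.00244). Top2a, the topoisomerase that untangles chromosomes, stood at 3.86, 6.47, 5.51 and 2.98 CPM in DKO and at 1.77, 0.552, 0.819 and 1.02 CPM in WT (2.10 ± 0.51, adjusted p = 0.00821). For both, the groups did not overlap. Cdk1, the kinase that drives entry into mitosis, stood at 1.87, 1.32, 1.44 and 1.17 CPM in DKO and at 0.295, 0.315, 0.273 and 0.568 CPM in WT (2.02 ± 0.49, adjusted p = 0.00492). Its partner cyclin B1, from Ccnb1, stood at 1.24, 1.32, 1.32 and 0.777 CPM in DKO and at 0.177, 0.394, 0.0911 and 0.227 CPM in WT (2.33 ± 0.53, adjusted p = 0.00277). These are low levels: Ccnb1 rested on 6 to 11 reads in each DKO library and on 1 to 5 in each WT library, and Cdk1 on 9 to 15 and 3 to 5. No DKO library reached down to the WT range for either gene.

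Prc1, which bundles the midzone microtubules of anaphase, stood at 2.49, 4.67, 4.31 and 4.79 CPM in Misc DKO and at 1.77, 1.42, 1.91 and 1.48 CPM in WT (log2 fold change 1.29 ± 0.31, adjusted p = 0.00489). Cenpa, the histone of centromeres, stood at 2.12, 1.68, 1.44 and 1.55 CPM in DKO and at 0.471, 0.394, 0.819 and 0.568 CPM in WT (1.60 ± 0.39, adjusted p = 0.00561). Both genes separated the groups fully. Plk1, a kinase of spindle assembly and cytokinesis, stood at 1.62, 1.68, 1.08 and 2.98 CPM in DKO and at 0.648, 0.315, 1.00 and 0.795 CPM in WT (1.42 ± 0.43, adjusted p = 0.0214). Tpx2, which activates Aurora A on the spindle, stood at 2.12, 4.31, 2.88 and 3.37 CPM in DKO and at 0.766, 0.473, 1.18 and 2.50 CPM in WT (1.47 ± 0.40, adjusted p = 0.0127). Cdc20, the activator of the anaphase-promoting complex, stood at 3.61, 4.67, 2.40 and 5.18 CPM in DKO and at 1.18, 2.13, 2.55 and 2.95 CPM in WT (0.89 ± 0.28, adjusted p = 0.0302). Tpx2 and Cdc20 overlapped between the groups. The 15 mitotic genes that did not pass had log2 fold changes from 0.24 (Aurka) to 1.80 (Aurkb).

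Outside mitosis the Misc changes were split. Cdc6, which loads the helicase onto origins, stood at 11.2, 8.98, 8.63 and 11.7 CPM in DKO and at 4.36, 5.76, 6.37 and 5.79 CPM in WT (log2 fold change 0.87 ± 0.19, adjusted p = 0.00178), with no overlap. Ccnd1 stood at 4.73, 3.47, 5.99 and 5.18 CPM in DKO and at 16.1, 13.41, 13.02 and 14.76 CPM in WT (-1.57 ± 0.21, adjusted p = 1.16e-05). Mcm6 stood at 12.7, 7.06, 9.23 and 6.99 CPM in DKO and at 16.8, 13.1, 16.3 and 18.3 CPM in WT (-0.84 ± 0.22, adjusted p = 0.00826). Thus every Misc DKO library was below every Misc WT library for Ccnd1 and Mcm6, the same pair that was lower in FAP DKO. Pcna, the sliding clamp of replication, stood at 133, 128, 116 and 152 CPM in Misc DKO and at 102, 146, 112 and 113 CPM in WT, and was not called (0.17 ± 0.12).

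Of the inhibitors in Misc, Cdkn1c fell and Cdkn2c rose. Cdkn1c encodes p57, an imprinted inhibitor of the cyclin E and cyclin A kinases (chr7:143458339-143461059). It stood at 55.6, 33.5, 42.3 and 49.99 CPM in DKO and at 95.9, 104, 100 and 79.6 CPM in WT (log2 fold change -1.07 ± 0.21, adjusted p = 0.00151). Cdkn2c encodes p18, an inhibitor of the kinases of the D cyclins. Its values were 8.34, 7.90, 6.71 and 8.29 CPM in DKO and 5.599, 5.048, 6.465 and 4.768 CPM in WT (0.51 ± 0.17, adjusted p = 0.0416). Neither gene's groups overlapped. Cdkn1a, encoding p21, the inhibitor switched on by p53, stood at 243, 257, 200 and 295 CPM in DKO and at 283, 319, 342 and 286 CPM in WT and was not called (-0.31 ± 0.11, adjusted p = 0.0642).

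Leaving out 1 Misc library at a time kept 10 of the 14 calls each time; the exceptions were Cdc20 (lost on leaving out DKO replicate 2, DKO replicate 4, WT replicate 1 or WT replicate 2), Cdkn2c (lost without any library other than DKO replicate 3 or WT replicate 3), Plk1 (lost without DKO replicate 4 or WT replicates 1 or 2) and Tpx2 (lost without DKO replicate 2 or WT replicate 1). Without Misc WT replicate 1, 10 genes were called. Markers of several cell types also differed between the Misc groups. The 12 satellite cell and myogenic markers summed to 1099 to 1337 CPM in Misc DKO and to 404 to 528 CPM in Misc WT, mostly through Chodl at 1095 ± 103 against 354 ± 44.1 CPM (SD, n = 4). Of the 12, 3 were called higher (Chodl, Myod1 and Vcam1) and 1 lower (Des). Myod1, which defines the muscle lineage, was at 0.871, 7.30, 3.24 and 0.389 CPM in Misc DKO and at 0.943, 0.315, 0.273 and 0.114 CPM in WT. In the same order the mitotic sum was 46.2, 63.2, 45.2 and 58.3 CPM in Misc DKO, and it was 22.0 to 28.2 CPM in Misc WT. Leukocyte markers summed to 17.5 to 33.9 CPM in DKO and 13.3 to 20.1 in WT; 8 of the 9 tested had a positive log2 fold change, and Cd79a was called higher (1.99 ± 1.02 against 0.418 ± 0.269 CPM; SD, n = 4), while Ptprc was at 0.240 CPM or less in DKO and at 0 in WT. The 10 FAP markers summed to 31630 to 35030 CPM in DKO and to 33850 to 37640 CPM in WT, and 2 of them were called higher, Pi16 (306 ± 52.5 against 43.6 ± 13.5 CPM) and Dpt (575 ± 24.9 against 310 ± 44.7 CPM; SD, n = 4). Of the 8 tendon cell markers 2 were called higher (Thbs4 and Scx) and 3 lower (Kera, Chad and Mkx). The 8 Schwann cell markers summed to 23.5 to 34.7 CPM in DKO and 62.5 to 69.1 CPM in WT, with Ngfr and Cdh19 called lower. The part of these cell types in the Misc result was not tested.

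**Figure D3:**
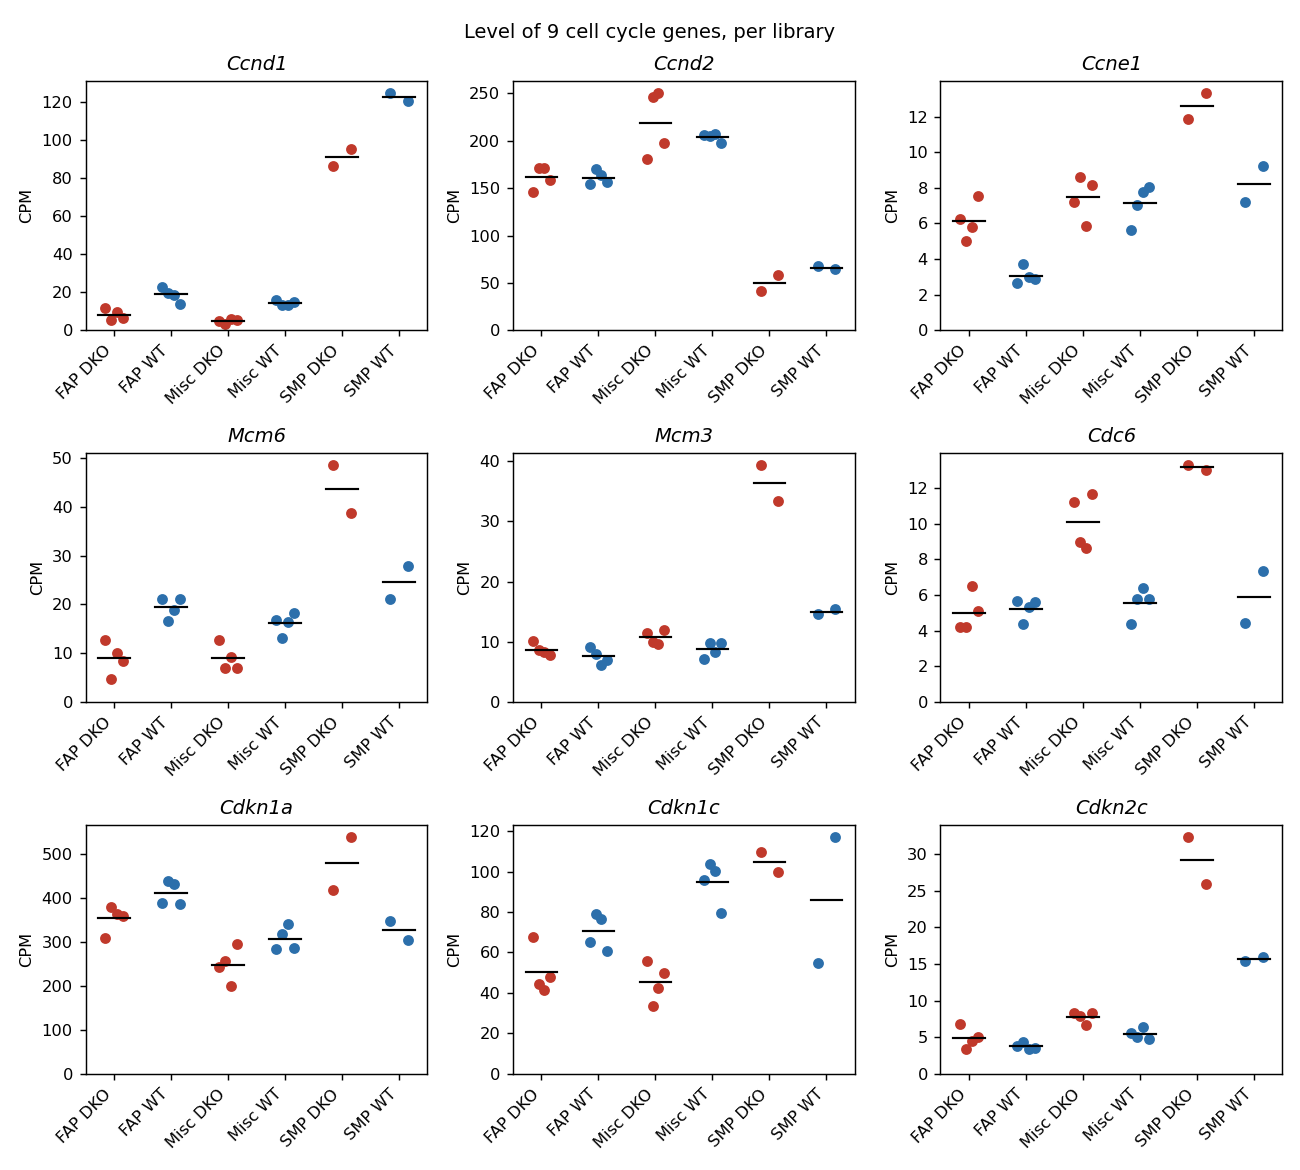
CPM of 9 members in each library (DKO red, WT blue; lines are group means): Ccnd1, Ccnd2, Ccne1, Mcm6, Mcm3, Cdc6, Cdkn1a, Cdkn1c and Cdkn2c. Ccnd1 and Mcm6 are lower in DKO in FAP and Misc, Mcm6 is higher in DKO in SMP, and Ccnd2 is at its lowest in SMP.

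In SMP, 25 of the 47 genes were called higher in DKO and none lower, beside 11.8% and 11.2% of all genes. They were 10 of 13 S-phase genes, 12 of 24 mitotic genes, E2f1, Cdkn1a and Cdkn2c. Only 2 of these calls, Mcm3 and Rrm2, held whichever of the 4 SMP libraries was left out. When the model held the 4 SMP libraries alone, 3 of the 47 were called: Mcm3, Rrm2 and Cdkn2c. Both DKO libraries were above both WT libraries in 35 of the 47 genes and below them in 5, but with 2 libraries a group that was so for 27.4% and 28.3% of all genes.

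Mcm3, another helicase subunit, stood at 39.4 and 33.3 CPM in SMP DKO and at 14.6 and 15.4 CPM in SMP WT (log2 fold change 1.28 ± 0.19, adjusted p = 7.16e-05). Rrm2, the regulated subunit of ribonucleotide reductase, which makes deoxynucleotides, stood at 29.0 and 26.7 CPM in DKO and at 16.0 and 12.3 CPM in WT (0.98 ± 0.20, adjusted p = 0.00166). In both genes the pairs of libraries lay close together and far from the other pair. Cdkn2c stood at 32.4 and 25.9 CPM in DKO and at 15.4 and 16.0 CPM in WT (0.90 ± 0.21, adjusted p = 0.00481). Cdkn1a stood at 418 and 540 CPM in DKO and at 348 and 304 CPM in WT (0.55 ± 0.16, adjusted p = 0.0172). Mcm3, Rrm2, Cdkn2c and Cdkn1a were the 4 genes still called without SMP WT replicate 1, with adjusted p from 0.00289 to 0.0435.

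The other 8 S-phase calls were lost without SMP WT replicate 1. Mcm6, lower in FAP and Misc DKO, was higher in SMP DKO: it stood at 48.6 and 38.7 CPM in DKO and at 21.2 and 27.9 CPM in WT (log2 fold change 0.83 ± 0.27, adjusted p = 0.0308). Mcm2 stood at 27.0 and 18.2 CPM in DKO and at 9.81 and 13.1 CPM in WT (0.99 ± 0.24, adjusted p = 0.00497). Mcm5, whose promoter is shown above, stood at 33.1 and 20.4 CPM in DKO and at 4.86 and 17.2 CPM in WT (1.29 ± 0.40, adjusted p = 0.0258). The WT libraries of Mcm5 thus lay further from each other than the higher of them lay from the lower DKO library. Mcm7 stood at 77.0 and 51.0 CPM in DKO and at 38.2 and 42.3 CPM in WT (0.67 ± 0.20, adjusted p = 0.0209). Mcm4 was the only helicase subunit not called (0.20 ± 0.14).

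Of the factors that license origins, Cdc6 stood at 13.31 and 13.04 CPM in SMP DKO and at 4.46 and 7.36 CPM in WT (log2 fold change 1.16 ± 0.26, adjusted p = 0.00302). Cdt1, its partner, stood at 19.6 and 15.9 CPM in DKO and at 7.62 and 11.6 CPM in WT (0.89 ± 0.31, adjusted p = 0.0382). Gmnn, the inhibitor of Cdt1, stood at 3.43 and 2.22 CPM in DKO and at 0.649 and 0.614 CPM in WT (2.14 ± 0.67, adjusted p = 0.0242), on 7 to 26 reads a library. Only the SMP DKO libraries carried Gmnn past the filter on low counts, so its call is not independent of that filter. Rrm1, the large subunit of ribonucleotide reductase, stood at 53.1 and 62.1 CPM in DKO and at 33.2 and 49.0 CPM in WT (0.49 ± 0.16, adjusted p = 0.03). E2f1, the E2F factor itself, stood at 11.6 and 7.41 CPM in DKO and at 2.35 and 6.05 CPM in WT (1.19 ± 0.33, adjusted p = 0.0115). In all 5 genes both DKO libraries lay above both WT libraries, but for E2f1 and Rrm1 the gap between groups was smaller than the gap between the WT libraries. Pcna stood at 189 and 202 CPM in DKO and at 144 and 161 CPM in WT and was not called (0.36 ± 0.17), and Tyms, the thymidylate synthase, had a log2 fold change of -0.17 ± 0.22.

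The SMP WT libraries were far apart in the mitotic genes. Every one of the 24 was higher in WT replicate 2 than in WT replicate 1, by a median ratio of 2.46, while among the 13 S-phase genes 10 were higher, by a median of 1.15. Cdk1 stood at 15.7 and 13.6 CPM in DKO and at 2.35 and 6.84 CPM in WT (log2 fold change 1.68 ± 0.44, adjusted p = 0.00934), and Ccnb1 at 14.1 and 13.9 CPM in DKO and at 2.76 and 6.75 CPM in WT (1.56 ± 0.43, adjusted p = 0.0121). Top2a stood at 118 and 89.2 CPM in DKO and at 21.6 and 64.9 CPM in WT (1.26 ± 0.42, adjusted p = 0.0404). Mki67 stood at 163.5 and 101.2 CPM in DKO and at 40.78 and 100.9 CPM in WT, and with DKO replicate 2 level with WT replicate 2 it was not called (0.90 ± 0.39, adjusted p = 0.106). The remaining 9 mitotic calls were Ube2c, Cenpa, Plk1, Ccnb2, Kif11, Prc1, Ccna2, Cdc20 and Kif20a.

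Among these, Ube2c, the ubiquitin conjugase of the anaphase-promoting complex, had the largest log2 fold change: it stood at 10.7 and 11.7 CPM in SMP DKO and at 1.95 and 4.82 CPM in WT (1.73 ± 0.44, adjusted p = 0.00779). Ccnb2, the second cyclin B, stood at 15.9 and 17.9 CPM in DKO and at 3.73 and 9.12 CPM in WT (1.40 ± 0.33, adjusted p = 0.0045). Kif11, the motor that pushes spindle poles apart, stood at 37.9 and 27.4 CPM in DKO and at 9.32 and 18.2 CPM in WT (1.25 ± 0.32, adjusted p = 0.00677). In each, WT replicate 2 lay between WT replicate 1 and both DKO libraries. Cenpa stood at 5.67 and 6.37 CPM in DKO and at 1.22 and 2.98 CPM in WT (1.52 ± 0.44), Plk1 at 5.53 and 2.37 CPM and at 0.973 and 1.84 CPM (1.498 ± 0.53), and Prc1 at 51.1 and 38.4 CPM and at 11.8 and 27.9 CPM (1.18 ± 0.31). Ccna2, which encodes cyclin A2, stood at 30.4 and 23.1 CPM in DKO and at 7.05 and 18.1 CPM in WT (1.10 ± 0.34). Cdc20 stood at 18.8 and 19.7 CPM in DKO and at 7.54 and 11.05 CPM in WT (1.05 ± 0.33), and Kif20a, a motor of cytokinesis, at 19.5 and 17.2 CPM and at 7.05 and 11.9 CPM (0.95 ± 0.33). Adjusted p of these 6 genes ranged from 0.00869 (Prc1) to 0.0428 (Plk1). The 12 mitotic genes not called had log2 fold changes from 0.29 (Cenpf) to 1.17 (Aurkb).

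Without SMP WT replicate 1, no mitotic gene was called; 23 of 24 still had a positive log2 fold change, and their median fell from 1.06 to 0.59. The calls among the 47 fell from 25 to 4, with the lone WT library assumed to vary like the other groups. Without SMP DKO replicate 1, the library with the highest mitotic sum, 10 genes were called. Without SMP DKO replicate 2, the library with the leukocyte, FAP and endothelial signal, 20 were called, among them Ccnd2 as lower (log2 fold change -0.68, adjusted p = 0.012). The mitotic sum was 701 CPM in DKO replicate 1 and 529 CPM in DKO replicate 2. These libraries also differed in leukocyte (35.7 and 635 CPM), FAP (2315 and 11120 CPM) and endothelial markers (119 and 664 CPM). The part of such cells in the mitotic sum was not tested. Without SMP WT replicate 2, 29 were called. Some satellite cell genes also differed between the conditions, in both directions. Pax7 stood at 125 and 100 CPM in DKO and 262 and 271 CPM in WT. Myod1, which is raised on activation, stood at 338 and 353 CPM in DKO and 132 and 140 CPM in WT. Pax7 and Myod1 were alike in the WT libraries, which differed 2.46 times in the typical mitotic gene. Myog, of the same marker list, was not alike there, at 18.0 and 68.0 CPM in WT and 86.7 and 51.6 CPM in DKO. Of the 12 satellite cell and myogenic markers 1 was called higher, 3 were called lower and 8 were not called. Of the 12 leukocyte markers, 9 of them tested, 6 were called higher. The part of either list in the cell cycle result was not tested. The share of all genes called in the fits without 1 library is not given here. A general loss of calls with fewer libraries is therefore not told apart from a loss in the cell cycle genes.

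**Figure D4:**
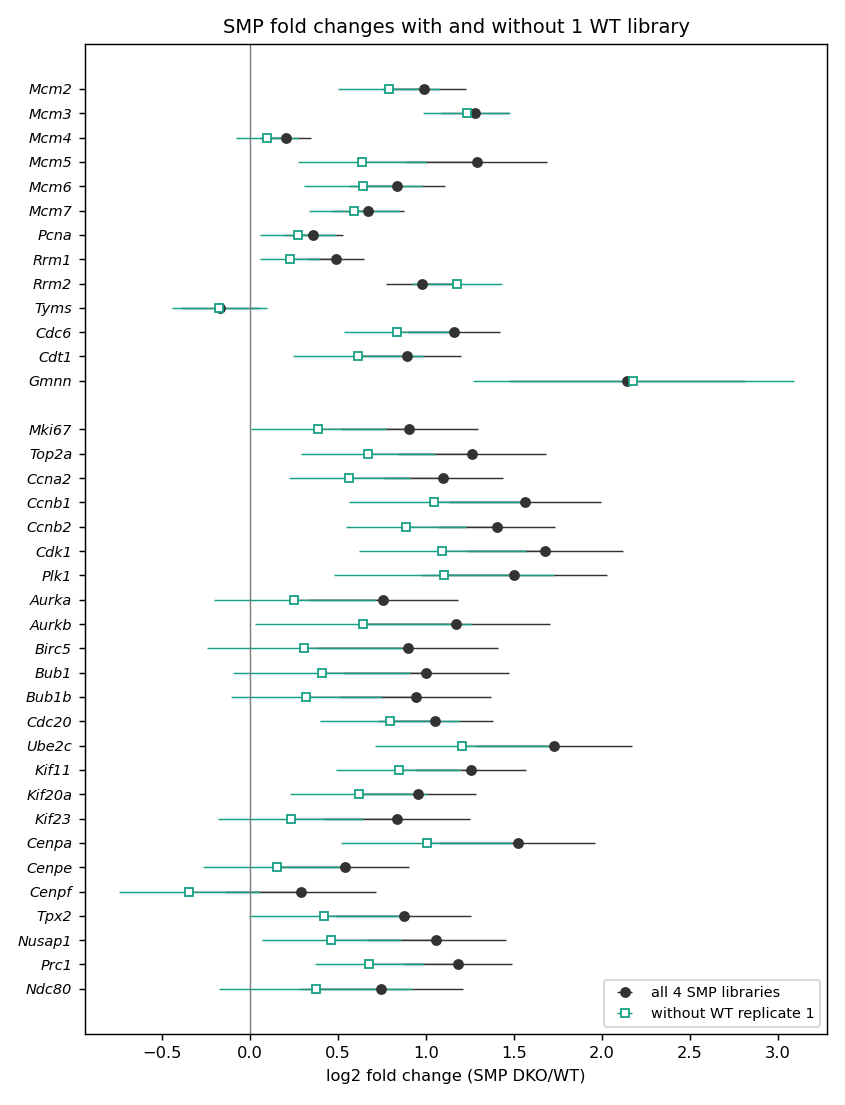
Log2 fold change of SMP DKO over SMP WT for the 13 S-phase and 24 mitotic genes with all 4 libraries (filled circles) and without WT replicate 1 (open squares); bars are standard errors. Leaving that library out moves the mitotic median from 1.06 to 0.59, while Mcm3 and Rrm2 stay near or above 1.

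Whether the DKO effect differed between populations was tested directly. Of 47 genes, 3 differed between FAP and Misc (2.79% of all genes), 9 between FAP and SMP (10.3%) and 6 between Misc and SMP (8.94%). Mcm6 differed most clearly: the DKO effect was lower in FAP than in SMP by 1.92 on the log2 scale (difference -1.92, adjusted p = 0.00102) and lower in Misc than in SMP (difference -1.67, adjusted p = 0.0035), and both held whichever library was left out. Mcm3 had a higher DKO effect in SMP than in FAP (difference -1.08, adjusted p = 0.00636), again whichever library was left out. Between FAP and Misc, the mitotic genes Cdk1 (difference -2.58, adjusted p = 0.0305) and Cenpa (-2.17, adjusted p = 0.028) had the higher DKO effect in Misc, where both rose, while in FAP neither was called (log2 fold changes -0.56 and -0.58). Ccne1 had the higher DKO effect in FAP (0.94, adjusted p = 0.0497). Each of the 3 lost its call when some single library was left out: the count was 0 without Misc DKO replicate 1 or Misc WT replicate 2, and 1 without FAP DKO replicate 3, FAP WT replicates 1 or 2, Misc DKO replicate 3, or Misc WT replicates 1 or 3. Between FAP and SMP the count was 3 without SMP WT replicate 1 and 18 without SMP WT replicate 2, and between Misc and SMP it was 3 without SMP WT replicate 1, SMP DKO replicate 1 or SMP DKO replicate 2. Of the 24 mitotic genes, 22 had a negative difference between FAP and Misc, with a median of -0.92. Between Misc and SMP none of the 24 was called by edgeR or DESeq2, 2 had an unadjusted p below 0.05 (edgeR) and the median difference was 0.09, so that the mitotic changes of these populations were not told apart.

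Between populations, SMP held more of nearly all cell cycle transcripts than FAP or Misc. In WT, 35 of 47 genes were lower and 3 higher in FAP than in SMP, beside 31.3% and 31.1% of all genes, and 37 were lower and 1 higher in Misc than in SMP, beside 30% and 30.6%. In DKO the counts were 43 lower and 1 higher for FAP (29.6% and 29.2% of all genes) and 44 lower and 1 higher for Misc (29.7% and 29.8%). Cenpf, a kinetochore protein, Mki67, Aurkb, the kinase of the chromosomal passenger complex, and Top2a were furthest apart by the mean of both conditions, with log2 differences of FAP from SMP in WT of -4.16, -3.67, -3.05 and -3.01. In Misc against SMP in WT those differences were -5.00, -5.56, -5.54 and -5.29. In WT alone, Bub1 (-3.44) and Ndc80 (-3.39) lay further from SMP in FAP than Aurkb and Top2a did. Ccnd2 went the other way in both conditions, with log2 differences of 1.28 (FAP) and 1.62 (Misc) from SMP in WT and of 1.69 and 2.13 in DKO.

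The D cyclins were used in different proportions. Per length of transcript, Ccnd1 made up 37.6 to 41.6% of the 3 D cyclin transcripts in SMP libraries, 5.83 to 9.20% in FAP WT and 5.96 to 7.96% in Misc WT. In FAP DKO its share was 2.36 to 5.61%, below every FAP WT library, and in Misc DKO 1.58 to 2.90%, below every Misc WT library. Ccnd2 held 10.7 to 14.9% in SMP and 36.7 to 71.7% in FAP and Misc. Ccnd1 had 90.9 ± 6.34 CPM in SMP DKO and 123 ± 2.93 CPM in SMP WT (SD, n = 2), a log2 fold change of -0.43 ± 0.22 that was not called.

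FAP and Misc differed in the mitotic genes in WT, where 10 of 24 were higher in FAP and none lower (8 of them also by DESeq2, which left out Ccna2 and Kif20a). In DKO none of the 24 was called (edgeR, with 1 at an unadjusted p below 0.05, and 0 called by DESeq2). Over all 47 genes, 13 were higher and 7 lower in FAP WT than in Misc WT (19.3% and 17.6% of all genes), and 4 were higher and 5 lower in DKO (16% and 13.7%). Same-numbered FAP and Misc libraries deviated together, and with the replicate number as a block Cdkn1c (log2 difference -0.44, adjusted p = 0.0195) and Kif23 (1.05, adjusted p = 0.036) were also called in WT. E2f1 was higher in FAP than in Misc in both conditions (2.00 in WT and 1.31 in DKO), as were Ccnd3 (0.83 and 0.61) and Cdkn1a (0.42 and 0.51). Rrm2 (-0.87 and -0.81), Cdt1 (-0.99 and -0.69), Cdkn2c (-0.54 and -0.63) and Ccnd2 (-0.34 and -0.44) were lower in FAP in both.

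Further genes of the cycle were taken from lists beside the 47. Of 54 other mitotic genes, none was called in FAP (1 at an unadjusted p below 0.05), 11 were higher in Misc DKO and 19 higher in SMP DKO, with none lower in any population, beside 5.58%, 9.15% and 11.8% of all genes called higher in FAP, Misc and SMP. In Misc the largest was Kif2c, a microtubule depolymerase of centromeres, at 1.02 ± 0.298 CPM in DKO and 0.114 ± 0.0765 CPM in WT (SD, n = 4; log2 fold change 3.17 ± 0.57, adjusted p = 0.000317), followed by Troap (2.61), Dlgap5 (2.41) and the condensin subunit gene Ncapg (2.37). In Misc WT no library stood above 0.158 CPM for Troap, 0.227 for Dlgap5 or 0.237 for Ncapg. These folds thus rest on very few WT reads. In SMP they were Nek2 (1.72), Mybl2 (1.59), Cdca8 (1.57) and Kif22 (1.46). Of 38 other S-phase genes, none was called in FAP (3 at an unadjusted p below 0.05), none was higher in Misc, where their median log2 fold change was 0.04, and 10 were higher in SMP, led by Mcm10 (2.27), Chaf1b (1.60), Cdc45 (1.46) and Hells (1.36). The median log2 fold change of the other mitotic genes was -0.03 in FAP, 0.74 in Misc and 0.97 in SMP. Their sum was 423 and 672 CPM in SMP WT replicates 1 and 2, and 957 and 724 CPM in SMP DKO. Calls of these lists, and of those in the next paragraphs, are given with all libraries only. How far their SMP calls depend on SMP WT replicate 1 was not tested.

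Of 22 genes for kinases, retinoblastoma family proteins, E2F partners and DREAM subunits, Tfdp1, an E2F partner, was the only one called in all 3 populations (0.29 ± 0.09 in FAP, 0.29 ± 0.09 in Misc and 0.49 ± 0.13 in SMP). E2f7 and E2f8, the E2F factors that repress S-phase genes late in the cycle, were higher in Misc DKO (1.23 ± 0.30 and 1.88 ± 0.64) and in SMP DKO (1.66 ± 0.36 and 2.57 ± 0.51). E2f8 stood at 11.6 and 6.52 CPM in SMP DKO and at 1.30 and 1.75 CPM in SMP WT. Rb1, the retinoblastoma gene, was lower in FAP DKO (-0.47 ± 0.11), as was Tfdp2 (-0.38 ± 0.12), and Rbl2, its relative in DREAM, was lower in SMP DKO (-0.56 ± 0.15). None of the 4 other inhibitor genes was called in any population.

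Genes of p53 and its targets, of which Cdkn1a is the best known, changed in both directions. Of 18, 6 were higher and 1 lower in FAP DKO, 4 and 1 in Misc DKO, and 6 and 4 in SMP DKO. Of all genes, 5.58% were higher and 5.14% lower in FAP, 9.15% and 9.55% in Misc, and 11.8% and 11.2% in SMP. Bax, which opens mitochondria in cell death, was higher in DKO in FAP (0.41), Misc (0.62) and SMP (1.29), as were Eda2r (0.50, 0.63 and 0.92) and Aen (0.48, 0.49 and 1.06), while Trp53inp1 was lower in all 3 (-0.54, -0.81 and -1.28). Gdf15, a secreted stress signal, was higher in FAP (0.72) and SMP (1.40). Cdkn1a itself was called only in SMP, where it was higher. In FAP it stood at 310, 380, 364 and 360 CPM in DKO and at 389, 439, 432 and 386 CPM in WT, with every DKO library below every WT library and no call (-0.22 ± 0.11, adjusted p = 0.238).

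Reads may be shared where genes overlap, since the use of strand in counting is not given in these sources. Of the 47 genes, 15 overlapped another annotated gene, among them Ccnd1, E2f1, Mcm7, Top2a, Ccna2, Cdc20, Kif11, Kif20a, Tpx2 and Prc1. Ccne1, Mcm3, Mcm6, Rrm2, Cdc6, Mki67, Ccnb1, Cdk1, Cenpa and the 4 inhibitors overlapped none.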

How the data were processed

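Paired reads of 20 RNA libraries were mapped by OSA to mm10, with RefSeq annotation, per the series design text. The submitters' processing notes name DESeq2, with no version. Raw counts per gene are what the authors deposited, and their counting tool and use of strand are not given in these sources. The replicates are called biological, with nothing on separate animals, so p-values measure the spread between these libraries.

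Counts were filtered with filterByExpr (minimum count 10, minimum total 15, smallest group 2), scaled by TMM and fitted for all 6 groups together, without a block, by the quasi-likelihood model of edgeR 4.0.16 (robust; R 4.3.3). CPM use TMM-scaled totals. Standard errors are the absolute log2 fold change over the square root of F. On simulated data, 75%, 85% and 63% of genes changed 2-fold were called in FAP, Misc and SMP, over 13648, 13660 and 13667 genes. The changed genes were drawn at random from all tested, at their mean over all libraries and with no outlying library. These shares therefore do not describe the low mitotic genes or the unlike SMP WT libraries.

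Members and lists were chosen with earlier results of these data known, so no count over a list is independent evidence. The rule described in full the members called in at least 1 DKO comparison and the highest one of each role by mean CPM; of other lists, up to 4 called genes a comparison; and between populations the 4 furthest genes each way called alike in DKO and WT. Same-numbered FAP and Misc libraries deviated together (r from 0.18 to 0.34, other numbers at most 0.06), a pairing seen in the data only; no other groups were paired by number. The RefSeq tables of GRCm38.p6 gave names, coordinates and promoters, and GENCODE vM21 gave transcript lengths. Alternatives were DESeq2 size factors, DESeq2 1.42.0 (Wald), no filter, fits of the compared groups alone, a replicate block and leaving out each library. Figures used matplotlib. A lower call among the other S-phase genes in Misc is not reported here.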

Additional observations from a re-analysis of the deposited data

Results flagged for a closer look

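Of 144 group values (32 members and the 4 sums by role, in 4 groups), each over 4 libraries, 5 had a library far from the other 3 by Dixon's test, where chance gives about 1 in 20. Ccnb1 was highest in FAP DKO replicate 4, at 1.96 CPM against 0.581 to 0.783, and lowest in Misc DKO replicate 4, at 0.777 CPM against 1.24 to 1.32. Ccna2 was lowest in FAP WT replicate 4, at 1.62 CPM against 1.81 to 1.84. Gmnn was highest in Misc DKO replicate 3, at 0.360 CPM against 0.240 to 0.259, and Cdk1 in Misc WT replicate 4, at 0.568 CPM against 0.273 to 0.315.

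The DKO effect differed between populations in 18 tests (edgeR, adjusted p below 0.05; log2 differences). Between FAP and Misc these were Ccne1 (0.94), Cdk1 (-2.58) and Cenpa (-2.17). Between FAP and SMP they were E2f1 (-1.34), Mcm3 (-1.08), Mcm6 (-1.92), Cdc6 (-1.22), Ccna2 (-1.52), Cdk1 (-2.23), Kif11 (-1.62), Cenpa (-2.10) and Cdkn1a (-0.77). Between Misc and SMP they were Ccnd1 (-1.13), Mcm3 (-0.97), Mcm6 (-1.67), Rrm2 (-0.84), Cdkn1a (-0.86) and Cdkn1c (-1.35).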

How the results depend on the processing

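With only the compared groups in the fit, 5 of the 47 genes were called in FAP (3 in the reported fit), 3 in SMP (25; Mcm3, Rrm2 and Cdkn2c) and 6 for the difference between FAP and Misc (3). DESeq2's Wald test also gave 6 there, adding Mki67, Top2a and Cdc6. Leaving out 1 library at a time gave 3 to 4 calls in FAP, 10 to 16 in Misc and 4 to 29 in SMP. For the differences of effect it gave 0 to 3 (FAP and Misc), 3 to 18 (FAP and SMP; 3 without SMP WT replicate 1, 18 without SMP WT replicate 2) and 3 to 6 (Misc and SMP; 3 without SMP DKO replicate 1, SMP DKO replicate 2 or SMP WT replicate 1). Between populations it gave 7 to 9 and 16 to 20 (FAP and Misc, DKO and WT), 42 to 45 and 30 to 40 (FAP and SMP), and 41 to 45 and 32 to 38 (Misc and SMP). Causes were not tested, beyond the fewer libraries in such fits. The replicate block gave 28 calls in SMP, gaining Mki67, Bub1b, Ccnd2 and Cdkn1b and losing Plk1; SMP numbers did not pair the libraries. In the paired FAP and Misc libraries it changed no call beyond Cdkn1c and Kif23.

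Signs turned only for values that were uncalled in the reported fit. Over the fits without 1 library, the log2 fold changes in FAP ranged from -0.0217 to 0.0526 (Ccnd2), -0.0191 to 0.26 (Mcm5), -0.0335 to 0.20 (Mcm7), -0.22 to 0.0228 (Cdc6), -0.20 to 0.23 (Top2a; -0.0209 with DESeq2's Wald test), -0.41 to 0.38 (Ccnb1), -0.23 to 0.0844 (Plk1), -0.25 to 0.33 (Ube2c), -0.10 to 0.19 (Kif20a) and -0.11 to 0.26 (Tpx2). In Misc they ranged from -0.0474 to 0.18 (Ccne1), -0.0009 to 0.24 (Mcm7), -0.11 to 0.0333 (Rrm1) and -0.0613 to 0.32 (Cdt1), and in SMP from -0.17 to 0.92 (Cdkn1c; 0.92, called, without SMP WT replicate 2). Mitotic genes of Misc WT rest on few reads, and SMP has 2 libraries a group.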
